A study of Mus musculus with 18 samples.

Results

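Olfactory receptor (Olfr) genes with detectable transcripts were described in round spermatids (RS), the haploid germ cells that follow meiosis. The members were chosen by the raw counts themselves. Every gene with a symbol of the form Olfr followed by a number, and with 10 or more counts in at least 6 of the 18 libraries, was taken, which gave 72 of the 1407 Olfr genes in the table. Of the others, 954 had counts but did not meet the rule, and 381 had 0 counts in every library. Because the counts chose the members, their detection is a description and is not tested. The 8 members between 37 and 41 Mb of chromosome 9, the chromosome that carries Ddx25, were set apart from the 64 elsewhere.

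RNA came from RS of mice 75 to 85 days old. WT mice were compared with mice lacking GRTH/DDX25 (KO), a testis RNA helicase encoded by Ddx25, and with knock-in mice (KI), whose mutated GRTH is not phosphorylated. Per the paper, KI mice carry the human GRTH gene with a missense mutation and keep the non-phosphorylated protein. Each genotype had 6 libraries, and neither the strain of the mice nor whether each library came from a separate animal is given in the sources used here. The KO and KI alleles are present in the whole animal, and p-values measure the spread between these samples.

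Olfactory receptors are G protein-coupled receptors that cross the cell membrane, encoded by the largest gene family of the mouse genome. In olfactory sensory neurons each cell transcribes a single receptor gene, and the receptor signals through the G protein subunit encoded by Gnal, the adenylyl cyclase encoded by Adcy3 and a cyclic nucleotide-gated channel. Transcripts of some receptors are also known from testis, where most have no assigned role.

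The depth of a library ran from 18766971 to 26776555 counts on genes, of which members took between 2142 and 3490. Levels are given as CPM, the counts relative to the TMM-scaled library total, or as RPKM, which is CPM divided by exon length in kb, where genes are compared. Ddx25 stood at 567 ± 24.7 CPM in WT and 70.0 ± 14.8 in KO (SD, n = 6). In KI, 5 libraries lay between 0.0456 and 0.519 CPM, whereas the library labelled KI 4 had 56.9, within the KO range of 47.7 to 90.9, so this library goes against its label. Reads were counted on mouse genes alone, so the KI values do not give the level of the human gene. Its counts were closest to those of KO 2, and 6 other pairs of libraries, each within 1 genotype, were also close (WT 1 and 2, WT 3 and 4, WT 5 and 6, KO 4 and 5, KI 1 and 2, KI 3 and 5). Values with KI 4 left out, or with each close pair of 1 genotype summed to 1 sample and KI 4 also left out (3 WT, 5 KO and 3 KI samples), are given where they lose a call. The second setting, called the summed samples here, changes both choices at once and holds fewer samples.

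RS markers (Acrv1, Spaca1, Tssk1, Spag6l, Catsper3 and Izumo1) summed to between 642 and 1116 CPM over the 18 libraries. Markers of elongating spermatids (Prm1, Prm2, Tnp1, Tnp2 and Oaz3) summed to 13156 ± 1491 CPM in WT against 2176 ± 546 in KO and 1962 ± 330 in KI. Per the paper, Prm2 and Tnp2 are already transcribed in RS, so this list does not mark elongating spermatids alone. Leydig cell markers summed to 12.2 ± 3.97 CPM in WT against 40.0 ± 10.2 in KO and 34.8 ± 21.4 in KI. The part of either difference in the values of the members was not tested. In such bulk samples, fewer cells of a type and less RNA per cell cannot be told apart. Markers of olfactory sensory neurons (Omp, Gng13, Cnga2, Stoml3, Gap43 and Calb2) were near 0, with 0 to 8 counts in any library.

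Most members were expressed at a low level. The mean over 18 libraries ran from 0.0613 to 3.85 RPKM with a median of 0.320, against a median of 2.38 RPKM over all 21058 tested genes, and 7 members reached 1 RPKM. The highest was Olfr701 on chromosome 7, with a mean of 3.85 RPKM and a range of 2.03 to 6.47 over the libraries. Next came Olfr443-ps1 on chromosome 6 with 2.85 RPKM, which the annotation calls a transcribed pseudogene. Olfr1444, Olfr112, Olfr162-ps1, Olfr1509 and Olfr161 followed with 1.66, 1.58, 1.55, 1.49 and 1.09 RPKM. The next places were taken by Olfr1389, Olfr896-ps1 and Olfr163-ps1 with 0.940, 0.913 and 0.905 RPKM. Within WT alone, Olfr701 (4.83 ± 1.27 RPKM, SD, n = 6) and Olfr443-ps1 (3.86 ± 0.542) lay within their spread of each other, as did Olfr112 (1.76 ± 0.472) and Olfr1444 (1.63 ± 0.535). Olfr896-ps1 came next to these 2 in WT, with 2.08 ± 0.429 RPKM, but fell to 0.306 ± 0.0861 in KO and 0.351 ± 0.192 in KI.

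**Figure D1:**
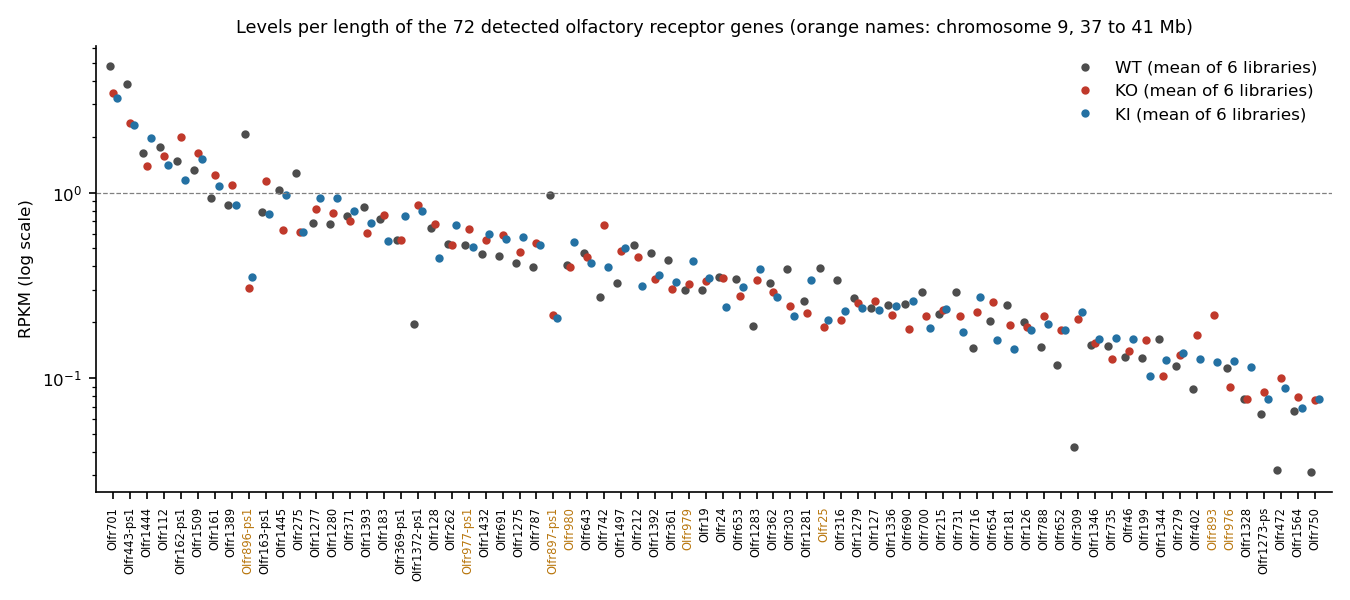
Mean level of each of the 72 members in WT, KO and KI (vertical axis: RPKM on a log scale, 6 libraries per point), ordered by the mean over all libraries. Most points lie under the dashed line at 1 RPKM, with Olfr701 at the top, and the WT point of Olfr893 is missing because that gene had 0 counts in WT.

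Of the 72 members, 29 had 10 or more counts in all 18 libraries, and 67 had them in at least 1 library of each genotype. No WT library reached 10 counts for Olfr893, Olfr309, Olfr472 and Olfr750, and no KI library did for Olfr897-ps1. These 5 could enter only through the genotypes in which they were higher, so their direction was partly fixed by the rule. Just inside the rule were Olfr1344, Olfr700 and Olfr199, with a sixth-highest count of 10, and just outside were Olfr1284, Olfr733 and Olfr1271, with 9.

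The members lie on 13 chromosomes, with 16 on chromosome 7, 10 on chromosome 9 and 9 on chromosome 2. In the GENCODE M21 annotation 64 are protein coding and 8 are pseudogenes of some kind. Another member lies within 50 kb of 39 of them, in 14 groups of neighbours. The median exon length was 3383 bases, against 2510 for the other Olfr genes, and longer genes reach a count minimum at a lower level per base. In 20 members over 10% of the 50-base stretches also occur in another gene, and in 9 the gene overlaps another on the same strand. Olfr1344, with 72.6% of its stretches shared with the overlapping Gm20715, is the most uncertain of them.

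Among members elsewhere than the chromosome 9 interval, libraries of 1 genotype differed as much as genotypes did. The CPM summed over those 64 members was 115 ± 6.58 in WT against 117 ± 10.1 in KO and 113 ± 21.2 in KI (SD, n = 6). KI 2 had the lowest sum of the 18 libraries (82.1 CPM) and KI 5 the highest (134), with KI 3 close to it (134). The highest value of a member lay in KI 3 or KI 5 for 23 of the 72 members, and the lowest lay in KI 1 or KI 2 for 27. The coefficient of variation within a genotype had a median over members of 32.2% in WT, 32.9% in KO and 47.2% in KI. KI 3 and KI 5 were also the KI libraries with the lowest sums of spermatogonial markers (17.6 and 15.3 CPM, against 22.8 to 54.0 in the other 4) and had low sums of Leydig markers (17.6 and 13.6, against 17.9 to 65.8). RS markers were lowest there too (642 and 696, against 787 to 928), as were markers of elongating spermatids (1466 and 1861) and Sertoli cells (8.26 and 7.90). Spermatocyte markers were highest there (938 and 987). The part of these relations in the members' levels was not tested.

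Some groups of neighbouring members shared this pattern, and others did not. The 6 members of the largest group, Olfr1275, Olfr1277, Olfr1279, Olfr1280, Olfr1281 and Olfr1283 on chromosome 2 (chr2:111230360-111370063), summed to 28.3 CPM in KI 3 and 31.2 in KI 5, against 7.22 to 20.2 in the other 4 KI libraries. The same sum ran from 8.02 to 18.1 CPM in WT and from 10.9 to 20.3 in KO, so KI 3 and KI 5 stood above both genotypes. Olfr1444 and Olfr1445 on chromosome 19 summed to 9.08 CPM in KI 3 and 1.64 in KI 2. In contrast, Olfr126, Olfr127 and Olfr128 had their lowest sum in KI 3 (1.92 CPM), and Olfr700 and Olfr701 had theirs in KI 5 (8.65 CPM). KO 2 and the library labelled KI 4 held the highest value of 12 members, Olfr309, Olfr472, Olfr750, Olfr787 and Olfr788 among them. This was not particular to that pair, as WT 3 held the highest value of 5 members and WT 4 of 8. KI 3 and KI 5, and KO 2 and KI 4, are also close pairs over all genes, so a pattern of 1 sample and one of a genotype cannot be told apart here.

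**Figure D2:**
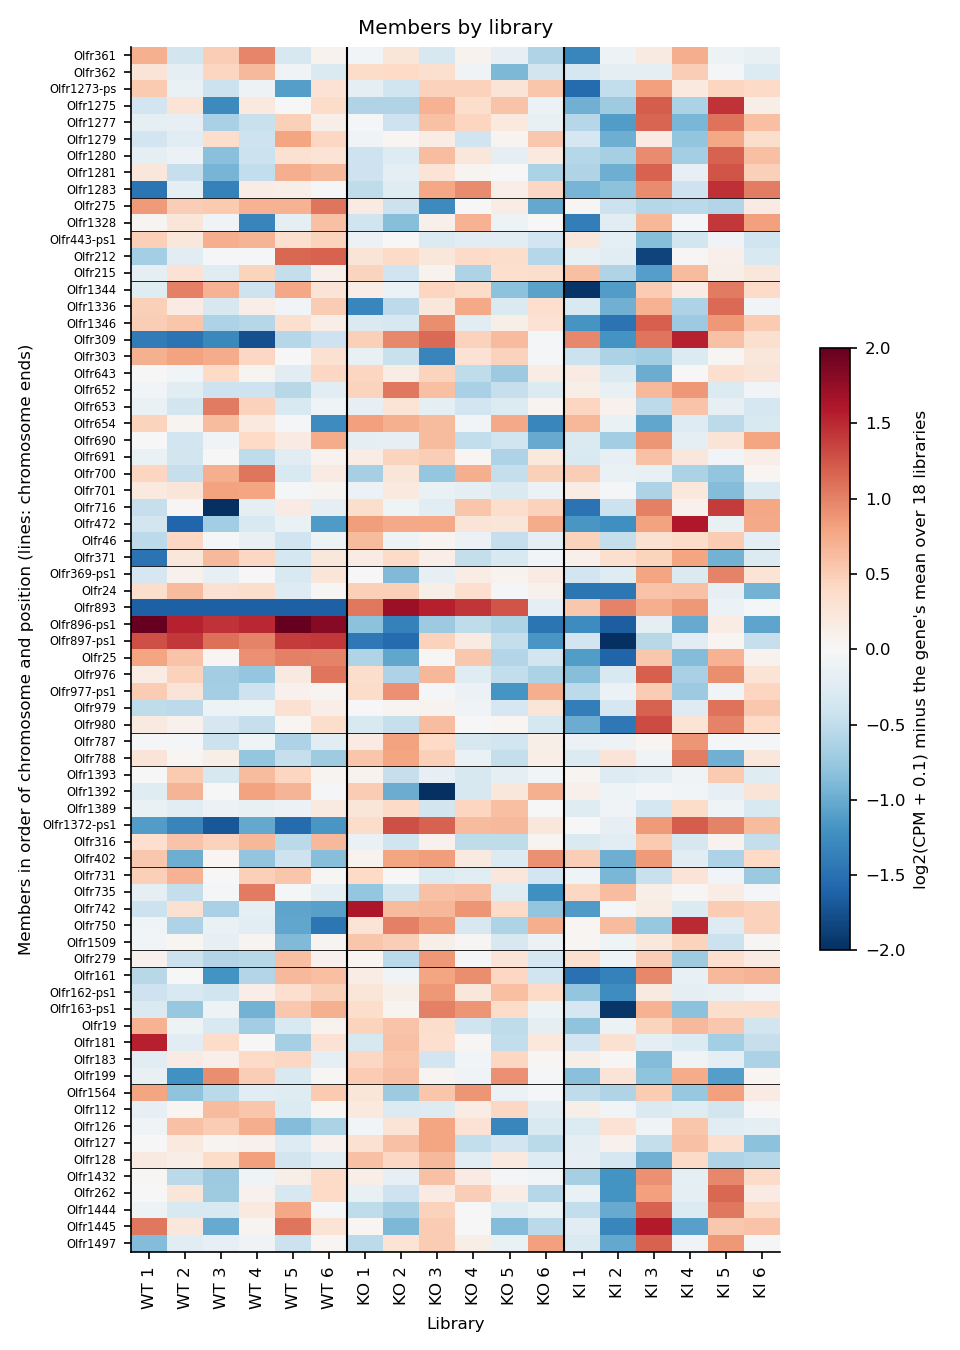
Level of each member in each library, as log2(CPM + 0.1) minus the mean of that gene over the 18 libraries, with members in the order of their position and lines between chromosomes and genotypes. The neighbouring members of chromosome 2 are red in KI 3 and KI 5 together, and Olfr896-ps1 and Olfr897-ps1 are red in every WT library.

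The comparison of KO or KI with WT asks which members change when GRTH is absent or not phosphorylated. Both comparisons share the WT libraries. Of the 72 members 71 passed the filter on low counts, all but Olfr700. Past 1 log2 unit (edgeR, adjusted p under 0.1), 2 members were higher in KO, Olfr893 and Olfr1372-ps1, where 0.598% of all genes tested were called higher, and 1 was lower, Olfr896-ps1, where 1.13% were called lower. In KI the same 3 genes were called, 2 higher against 0.522% of all genes and 1 lower against 1.43%. Olfr893 had met the count rule through the mutants alone.

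By any amount, 7 members (9.86% of those tested) were higher in KO against 16.4% of all genes, and 9 (12.7%) were lower against 13.5%. In KI, 5 (7.04%) were higher against 16.1%, and 8 (11.3%) were lower against 15.4%. The members' shares by any amount were thus at or below the background, and 54 of the 71 tested members were called in neither comparison. The calls include the higher Olfr893, Olfr309, Olfr472 and Olfr750 and the lower Olfr897-ps1, whose direction the count rule partly fixed. Those calls are therefore a description. The median log2 fold change of the members was 0.05 in KO and 0.07 in KI, against 0.03 and 0.05 over all genes. Of the 17 members called in either comparison 12 were called in both. The shares of all genes called in both or in neither are not given here, so these counts are a description. CPM values of the genotypes did not overlap for 8 members between KO and WT, against 13.1% of tested genes, and for 6 between KI and WT, against 13.9%.

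Between KI and KO, 0 members were called past 1 log2 unit, where 0.00475% of all genes were called, and 0 by any amount, where 0.0997% were, in edgeR. At an unadjusted p under 0.05 in the test for any amount there were 3 of 71 members, against 931 of 21058 tested genes. DESeq2 also called 0 members. For 0 members did the KI and KO libraries not overlap, against 0.223% of tested genes. The largest differences were the lower values of Olfr893 in KI (log2 fold change -0.82 ± 0.37, SE, adjusted p = 0.961) and of Olfr162-ps1 (-0.79 ± 0.25, adjusted p = 0.625). The standard error had a median of 0.33 log2 units over members, so differences of that size were not detectable. Larger ones, such as those of Olfr893 and Olfr162-ps1, were not called either, so the absence of a call does not show equal levels.

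**Figure D3:**
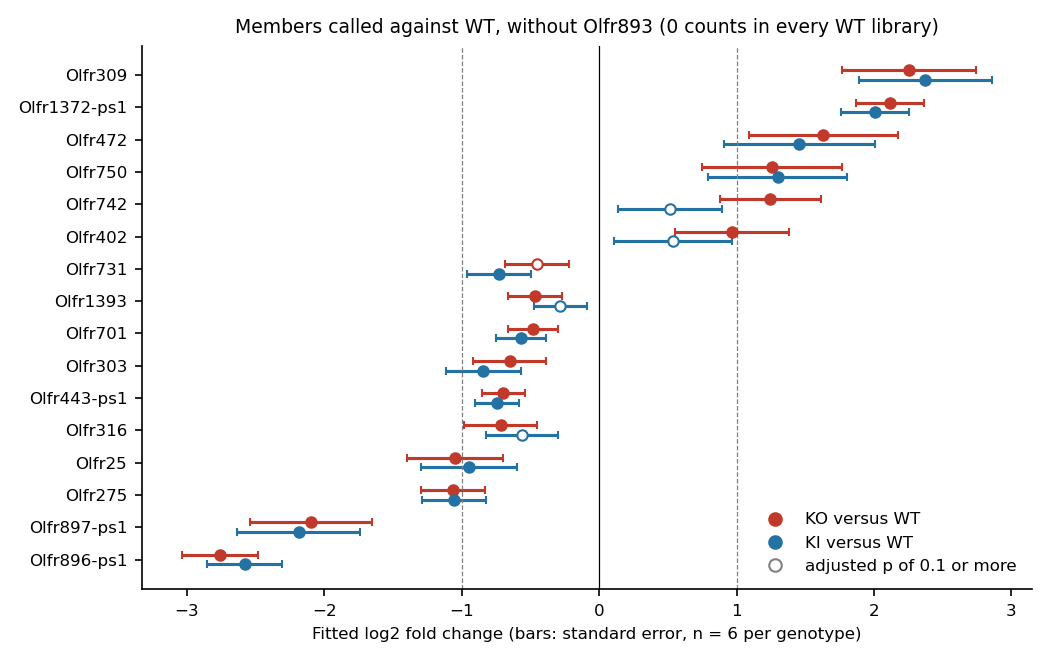
Fitted log2 fold change with its standard error for the members called against WT, in KO (red) and KI (blue), from 6 libraries per genotype, with open points where the adjusted p was 0.1 or more. Olfr893 is left out because with 0 counts in WT the size of its fold depends on the fit and no standard error is given. For 16 members the KO and KI points lie on the same side of 0, with Olfr309 and Olfr1372-ps1 at the right and Olfr896-ps1 at the left.

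The 8 members of the chromosome 9 interval fall in 2 groups, both distal to Ddx25, which lies at chr9:35536647-35558528. Olfr893, Olfr896-ps1, Olfr897-ps1 and Olfr25 start 2.65 to 2.77 Mb beyond the end of Ddx25 on the + strand, and Olfr976, Olfr977-ps1, Olfr979 and Olfr980 start 4.4 to 4.45 Mb beyond it on the - strand. To show how alike these receptors are, the coding sequence around the MAYDRY motif, a hallmark at the end of the third transmembrane helix, or around a variant of it is given below for those in which either was found, 5′ to 3′ on the coding strand of GRCm38, with the codons of the motif or variant in capitals.
Olfr893 (chr9:38209406-38209447, + strand): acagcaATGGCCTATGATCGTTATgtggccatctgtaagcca
Olfr896-ps1 (chr9:38292286-38292327, + strand): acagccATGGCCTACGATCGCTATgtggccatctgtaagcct
Olfr25 (chr9:38329943-38329984, + strand): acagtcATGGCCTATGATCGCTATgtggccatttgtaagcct
Olfr976 (chr9:39956547-39956588, - strand): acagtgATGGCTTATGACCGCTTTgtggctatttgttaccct
Olfr979 (chr9:40000842-40000883, - strand): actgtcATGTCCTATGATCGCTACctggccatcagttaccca
Olfr980 (chr9:40006564-40006605, - strand): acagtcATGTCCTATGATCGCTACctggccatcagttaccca
Olfr979 and Olfr980 differ at 1 of these 42 bases, and Olfr896-ps1 and Olfr25 at 3, while Olfr893 and Olfr979 differ at 10. The motif reads in full in Olfr893, Olfr896-ps1 and Olfr25, and 1 residue differs from it in Olfr976, Olfr979 and Olfr980. Over whole transcripts, the share of 50-base stretches that occur in any other gene, olfactory receptor or not, was 7.20% in Olfr979, 11.8% in Olfr980, 2.29% in Olfr893, 2.15% in Olfr896-ps1 and 0% in Olfr25. Of the 67 members with a coding sequence 27 held the motif in full and 30 a variant, so neither is particular to the interval. Olfr896-ps1 is protein coding in this annotation in spite of its name.

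All 4 members of the nearer group were called in both comparisons with WT, 1 higher and 3 lower, where 29.9% of all genes tested were called in either direction in KO and 31.6% in KI. Olfr893 (chr9:38208365-38211598) had 0 counts in each of the 6 WT libraries. It had 4 to 21 counts in KO (median 16.5) and 4 to 13 in KI (median 8.5). It thus met the count rule through the mutants alone, which partly fixed its direction. No mutant library overlapped WT. Its mean of 0.637 CPM in KO was at least 4.53-fold higher than a floor of 3 counts per WT library, and its mean of 0.357 CPM in KI was at least 2.54-fold higher (adjusted p = 5.47e-06 and 4.76e-05, and 2.38-fold without KI 4).

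Olfr896-ps1 (chr9:38291107-38294465), 82.7 kb further on, changed in the opposite direction. It ranged from 4.83 to 7.77 CPM in WT (median 5.74), from 0.563 to 1.18 in KO (median 0.962) and from 0.479 to 1.92 in KI (median 0.790). Every WT library lay above every KO and KI library. The log2 fold change was -2.76 ± 0.28 in KO (SE, adjusted p = 1.66e-07) and -2.58 ± 0.27 in KI (with adjusted p = 3.03e-07), and both also passed the test past 1 log2 unit (adjusted p = 0.000184 and 0.000454).

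Olfr897-ps1 (chr9:38308797-38309731), a polymorphic pseudogene, had 15 to 25 counts in WT (median 20.5), 1 to 10 in KO (median 3.5) and 0 to 7 in KI (median 5). Again WT did not overlap the mutants, but no KI library reached 10 counts, so the rule partly fixed the direction in KI. It fell by 2.10 ± 0.44 in KO and 2.19 ± 0.45 in KI on the log2 scale (adjusted p = 0.00121 and 0.000794), but did not pass the test past 1 log2 unit (adjusted p = 0.416 and 0.271).

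Olfr25 (chr9:38329060-38335889), the last of the group, showed the smallest change. It ranged from 1.59 to 3.22 CPM in WT (median 2.87), 0.699 to 2.28 in KO (median 1.09) and 0.439 to 2.57 in KI (median 1.22). Here the genotypes overlapped, with KO 4, KI 3, KI 5 and KI 6 above the lowest WT library. The log2 fold change was -1.05 ± 0.35 in KO (adjusted p = 0.0335) and -0.95 ± 0.35 in KI (adjusted p = 0.0517). The KI call was lost without KI 4 (-0.83, adjusted p = 0.103), without WT 6 or without KI 1, and in the summed samples (-0.77, adjusted p = 0.316).

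**Figure D4:**
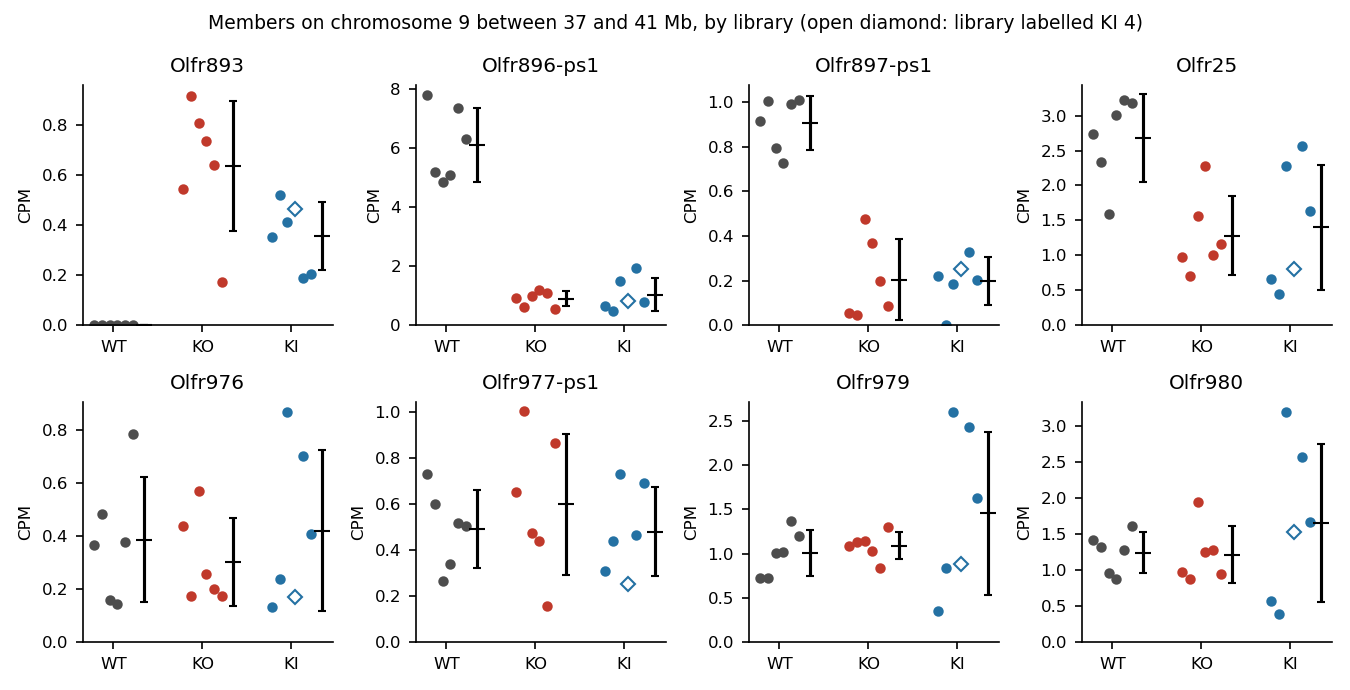
CPM of the 8 members of the chromosome 9 interval in each library (vertical axes start at 0), with the mean and SD of each genotype in black (n = 6) and the library labelled KI 4 as an open diamond. In the top row WT stands apart from KO and KI for Olfr893, Olfr896-ps1 and Olfr897-ps1, and in the bottom row the genotypes overlap for all 4 genes.

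None of the 4 members of the farther group was called in either comparison (edgeR, by any amount). Olfr980 had a mean of 1.24 ± 0.280 CPM in WT against 1.21 ± 0.395 in KO and 1.66 ± 1.09 in KI (SD, n = 6), and its log2 fold change was -0.04 ± 0.37 in KO and 0.40 ± 0.36 in KI (with adjusted p = 0.961 and 0.476). Olfr979 had 1.01 ± 0.256, 1.09 ± 0.151 and 1.46 ± 0.918 CPM, with log2 fold changes of 0.11 ± 0.35 and 0.53 ± 0.34 (adjusted p = 0.869 and 0.285). Both were highest in KI 3 and KI 5. Olfr976 (0.386, 0.302 and 0.420 CPM) and Olfr977-ps1 (0.494, 0.600 and 0.482 CPM) were lower, with fold changes between -0.40 and 0.25 log2 units and standard errors of 0.37 to 0.49. The 95% limits of Olfr976 ran from -1.37 to 0.57 in KO and from -0.84 to 1.01 in KI, and those of Olfr977-ps1 from -0.47 to 0.98 and from -0.79 to 0.69. The CPM summed over the 4 genes was 3.13 ± 0.669 in WT against 3.21 ± 0.537 in KO and 4.02 ± 2.41 in KI.

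The region between the called members held further Olfr genes too low for the rule. They were singled out after their values were seen and were not tested. Olfr894 had 1 count in all WT libraries together, 21 in KO and 26 in KI, Olfr895 had 0, 14 and 15, and Olfr143 had 1, 20 and 9. Olfr898, beyond Olfr25, went the other way with 31 counts in WT against 5 in KO and 7 in KI. The genes from Olfr893 to Olfr895 thus had more counts in the mutants and those from Olfr896-ps1 to Olfr898 more in WT.

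The interval holds 123 Olfr genes, of which 28 had 0 counts in every library. Among its 89 other genes 29 were tested. Of these 12 were called in KO (7 higher and 5 lower, 41.4%) and 12 in KI (8 higher and 4 lower, 41.4%). The share was 50% among the members in each comparison (4 of 8), against 29.9% in KO and 31.6% in KI over all genes tested. The 50% is a description, because Olfr893 met the count rule through the mutants alone and no KI library reached 10 counts for Olfr897-ps1. Of the 29 other genes 2 were higher and 1 lower past 1 log2 unit in each comparison. Over all genes tested, 0.598% were called higher and 1.13% lower past 1 log2 unit in KO, and 0.522% and 1.43% in KI. Changes in this interval were not limited to Olfr genes, and linkage to Ddx25 and genotype cannot be told apart in this design.

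**Figure D5:**
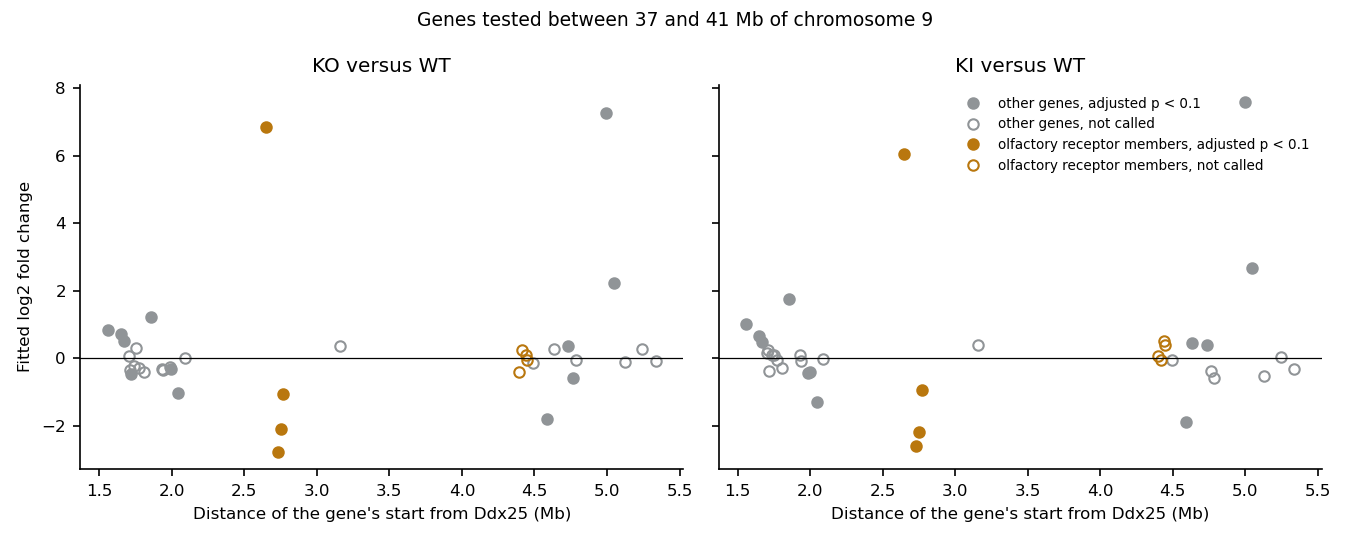
Fitted log2 fold change of the genes tested between 37 and 41 Mb of chromosome 9 (vertical axis) against the distance of their start from the end of Ddx25 in Mb (horizontal axis), for KO and KI versus WT. The 4 members near 2.7 Mb are called (filled orange) and the 4 near 4.4 Mb are not (open orange), while called genes of other families (filled grey) lie on both sides, and the height of Olfr893 depends on the fit because WT had 0 counts.

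Elsewhere, Olfr1372-ps1 on chromosome 11 (chr11:52154722-52168159), a transcribed unprocessed pseudogene, rose in both mutants. It ranged from 1.43 to 2.33 CPM in WT (median 2.0), 5.72 to 12.1 in KO (median 7.61) and 4.31 to 11.4 in KI (median 8.24). No mutant library overlapped WT. The log2 fold change was 2.12 ± 0.25 in KO and 2.01 ± 0.25 in KI (with adjusted p = 1.31e-06 and 2.28e-06), and both passed the test past 1 log2 unit (adjusted p = 0.00684 and 0.0147), the latter not in the summed samples (adjusted p = 0.381). It overlaps Gm26551 on the same strand, which was too low to be tested (0.292 CPM in WT against 0.434 in KO and 0.263 in KI).

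Olfr309 on chromosome 7 rose to the same extent but from a few counts, with 1 to 6 in WT (median 2), 9 to 21 in KO (median 16.5) and 3 to 32 in KI (median 17). WT and KO did not overlap, and WT and KI did. Its log2 fold change was 2.25 ± 0.49 in KO and 2.37 ± 0.48 in KI (with adjusted p = 0.00136 and 0.000700). It did not pass the test past 1 log2 unit in either (adjusted p = 0.350 and 0.190). Olfr303, on the same chromosome and strand, was called in the other direction, from 1.63 ± 0.361 CPM in WT to 1.03 ± 0.419 in KO and 0.905 ± 0.262 in KI, with log2 fold changes of -0.65 ± 0.27 and -0.84 ± 0.27 (adjusted p = 0.0840 and 0.0252). In the summed samples neither call was kept (-0.76 and -0.73, adjusted p = 0.166 and 0.273).

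Olfr472 and Olfr750 were higher in both mutants at a few counts per library. Like Olfr309, they met the count rule through the mutants alone, which partly fixed the direction. Olfr472 had 1 to 6 counts in WT, 10 to 14 in KO and 2 to 28 in KI (medians 4, 12.5 and 10), and rose by 1.63 ± 0.54 in KO and 1.46 ± 0.55 in KI (with adjusted p = 0.0289 and 0.0512). Olfr750 had 1 to 6, 4 to 16 and 3 to 24 counts (medians 4.5, 10 and 9), and rose by 1.26 ± 0.51 and 1.30 ± 0.50 (adjusted p = 0.0730 and 0.0585). For both genes the KI maximum was in KI 4. Without it the KI changes were 0.96 (adjusted p = 0.195) for Olfr472 and 0.88 (adjusted p = 0.201) for Olfr750, and neither was called. In the summed samples the KI calls were lost as well (adjusted p = 0.276 for Olfr472 and 0.367 for Olfr750), and so was the KO call of Olfr750 (adjusted p = 0.115). Olfr742 and Olfr402 were called higher only in KO. Olfr742 went from 0.636 ± 0.285 to 1.54 ± 0.808 CPM (log2 fold change 1.25 ± 0.37, adjusted p = 0.0162), and its KI value of 0.52 ± 0.38 did not pass (adjusted p = 0.360). Olfr402 went from 0.315 ± 0.187 to 0.616 ± 0.231 CPM in KO (0.96 ± 0.41, adjusted p = 0.0947) and was 0.54 ± 0.43 in KI (adjusted p = 0.397). The difference between KI and KO itself did not pass for either gene (adjusted p = 0.961 for both).

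Among the lower members, Olfr275 on chromosome 4 ranged from 3.65 to 5.47 CPM in WT (median 4.22), 0.997 to 2.89 in KO (median 2.23) and 1.68 to 2.90 in KI (median 1.81). Neither mutant overlapped WT. It fell by 1.07 ± 0.23 in KO and 1.05 ± 0.23 in KI on the log2 scale (adjusted p = 0.00185 and 0.00181). In the summed samples the KO call was kept (adjusted p = 0.0190) and the KI call was not (-0.91, adjusted p = 0.116). Gm12482, which overlaps it on the same strand, was not called (-0.33 ± 0.29 and -0.06 ± 0.29).

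Olfr443-ps1, second in level, ranged from 5.18 to 7.38 CPM in WT (median 6.10), 3.38 to 4.41 in KO (median 3.78) and 2.42 to 5.17 in KI (median 3.61), again without overlap. Its log2 fold change was -0.70 ± 0.16 in KO and -0.74 ± 0.16 in KI (with adjusted p = 0.00249 and 0.00130). Olfr316 fell in KO from 0.919 ± 0.259 to 0.561 ± 0.124 CPM (-0.72 ± 0.27, adjusted p = 0.0534, and 0.193 in the summed samples), and its KI value of -0.56 ± 0.26 did not pass (adjusted p = 0.125). The difference between KI and KO did not pass for Olfr316 (adjusted p = 0.965).

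Olfr701, the member with the highest level, was called lower in both mutants. It ranged from 15.3 to 27.1 CPM in WT (median 18), 12.7 to 17.9 in KO (median 14.2) and 8.51 to 18.1 in KI (median 14), so the genotypes overlapped. The log2 fold change was -0.48 ± 0.18 in KO (adjusted p = 0.0589) and -0.57 ± 0.18 in KI (adjusted p = 0.0245), and neither call was kept in the summed samples (-0.46 and -0.63, adjusted p = 0.183 and 0.117). The remaining calls were Olfr1393, lower in KO (-0.47 ± 0.19, adjusted p = 0.0881, and 0.197 in the summed samples), and Olfr731, lower in KI (-0.73 ± 0.23, adjusted p = 0.0247).

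Olfr701 lies 27 bases from 4930458B22Rik on the opposite strand, a gene that fell more steeply, from 6.26 ± 0.844 CPM in WT to 2.21 ± 0.572 in KO and 1.77 ± 0.417 in KI (log2 fold change -1.50 ± 0.19 and -1.82 ± 0.19, adjusted p = 4.75e-06 and 3.39e-07). The 250 bases before the start of Olfr701, which cover the gap between the genes, are given from RefSeq on GRCm38.p6, with a match to the letters TATAAA of the TATA box on the other strand in capitals. The match lies within 4930458B22Rik, well away from either start, and is one of letters only.
Olfr701 upstream (chr7:106813879-106814128, + strand): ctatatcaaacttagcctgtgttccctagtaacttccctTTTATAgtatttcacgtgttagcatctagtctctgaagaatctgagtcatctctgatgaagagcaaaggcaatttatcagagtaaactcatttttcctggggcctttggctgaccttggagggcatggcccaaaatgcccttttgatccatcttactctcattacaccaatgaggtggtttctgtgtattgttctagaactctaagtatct
RefSeq promoter windows, from 250 bases before to 50 after a start, were found for 53 of the 72 members, and in 3 of them the start lay within 10 bases of the start used for counting, as it does for Olfr701. The letters TATAAA, searched on both strands, were in 48.1% of member windows, 41% of Olfr windows and 13.6% of all windows. The homeodomain core TAATTA was in 18.5%, 18.6% and 5.29%. The half-site TGACG of the cyclic AMP response element, which the spermatid activator CREM binds, was in 5.56% of member windows, 5.59% of Olfr windows and 20.8% of all windows, and the full element TGACGTCA in 0%, 0.105% and 1.79%. Member windows were thus close to those of other Olfr genes, and no site is implied by a match.

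The genes with which olfactory receptors signal were only partly detected. Of 19 genes of olfactory transduction 14 were tested, and Cnga2, the main subunit of the olfactory channel, had at most 1 count in any library. Gnal fell from 3.58 CPM in WT to 2.37 in KO and 2.27 in KI (log2 fold change -0.60 ± 0.23 and -0.66 ± 0.24, adjusted p = 0.0696 and 0.0431). Adcy3 was not called (-0.13 ± 0.15 and -0.22 ± 0.15). In KO, 2 genes of the list rose, the chloride channel gene Ano2 (0.73 ± 0.19, adjusted p = 0.00794) and the phosphodiesterase gene Pde4a (0.42 ± 0.18, adjusted p = 0.0988), and 2 fell, Gnal and Cnbd1 (-0.87 ± 0.14, adjusted p = 6.82e-05). In KI, 2 rose, Ano2 (0.44 ± 0.19, adjusted p = 0.0999) and the chloride carrier gene Slc12a2 (0.26 ± 0.11, adjusted p = 0.0905), and 2 fell, Gnal and Cnbd1 (-0.84 ± 0.14). These calls stand beside 29.9% of all genes tested that were called in either direction in KO and 31.6% in KI. The list's median log2 fold change was 0.13 in KO and 0.15 in KI.

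Of 16 genes for receptor trafficking and receptor choice 14 were tested, with 1 higher and 5 lower in KO and 1 higher and 4 lower in KI. Over all genes tested, 29.9% were called in KO and 31.6% in KI. Reep6, of the receptor expression-enhancing family, was alone past 1 log2 unit, falling from 844 CPM in WT to 135 in KO and 111 in KI (-2.65 ± 0.25 and -2.93 ± 0.25, adjusted p = 6.24e-08 and 1.44e-08). The homeobox genes Lhx2 (-1.14 ± 0.21 in KO and -1.55 ± 0.22 in KI) and Emx2 (-0.91 ± 0.15 and -0.78 ± 0.15), used in receptor choice, also fell. Reep1 fell by 0.55 ± 0.20 and 0.60 ± 0.20. Ebf4 rose by 0.96 ± 0.27 and 1.23 ± 0.27. Rtp1, a chaperone of olfactory receptors, was lower in KO (-0.79 ± 0.33, adjusted p = 0.0884) and missed the threshold in KI (-0.75 ± 0.33, adjusted p = 0.101). The median of this list was 0.04 in KO and -0.03 in KI.

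Other chemosensory families met the same count rule in part, with 13 of 201 Vmn1r and 13 of 121 Vmn2r vomeronasal receptor genes and 2 of 3 Tas1r taste receptor genes. In contrast 0 of 16 Taar, 0 of 40 Tas2r and 0 of 8 Fpr genes did. Among 12 tested Vmn1r genes 1 was higher and 1 lower in KO and 2 were lower in KI, and among 13 Vmn2r genes 1 was higher and 2 were lower in each. The shares called over all genes tested were 29.9% in KO and 31.6% in KI. Vmn2r107 fell by 0.99 ± 0.24 in KO and 1.37 ± 0.24 in KI (with adjusted p = 0.00412 and 0.000216), and Vmn1r65 by 0.92 ± 0.22 and 1.59 ± 0.23 (adjusted p = 0.00400 and 2.28e-05). None of these passed the test past 1 log2 unit.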

How the data were processed

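RNA of RS from WT, KO and KI mice was sequenced in 18 libraries. Per the methods and labels, reads were trimmed by the authors (cutadapt 3.4), mapped to GRCm38 (STAR 2.7.8a) and counted by strand on GENCODE 18 genes with featureCounts (Subread 2.0.1), and the deposited values are raw counts. How reads that map to several places were counted is not given in the sources used here, so members with near-identical copies are uncertain. Symbols and positions came from GENCODE M21 on the same build, with identical starts and ends for all 72 members. The members and lists were chosen with earlier results of these data known.

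Counts of all genes were filtered (filterByExpr, 21058 kept), TMM-scaled and fitted with 1 quasi-likelihood model of genotype in edgeR 4.0.16 (R 4.3.3, limma 3.58.1). glmTreat served for changes past 1 log2 unit and glmQLFTest for changes by any amount, two-sided, with Benjamini-Hochberg adjustment over all genes and a threshold of 0.1. The method was tested on simulated data. A floor of 3 counts, 0.112 to 0.160 CPM of the raw totals, was used for genes at 0 counts and covers counting error only. Named genes were the members of the chromosome 9 interval, the 10 with the highest mean RPKM, those past 1 log2 unit, the 5 largest rises and falls among other calls in each comparison with WT, members called between KI and KO, and those at the edge of the rule, with genes of the 2 signalling lists. Olfr1393, Olfr731 and other genes outside this rule were named after their values were seen. Alternatives included DESeq2 1.42.0, other filters and libraries left out. Plots were made in Python 3.11.15 (matplotlib 3.10.9).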

Additional observations from a re-analysis of the deposited data

Results flagged for a closer look

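Over the 29 named members and 3 genotypes, 5 libraries stood apart from the other 5 of their genotype by the gap to the nearest value relative to the range (above 0.625 for 6 libraries), and chance flags about 1 group in 20. Olfr1389 had 3.86 CPM in WT 6, where the next value was 3.13, and 4.44 CPM in the library labelled KI 4, where the next was 3.23. Olfr1509 had 1.99 CPM in WT 5, under 3.35 in the next library. Olfr316 had 0.426 CPM in WT 5, under 0.869 in the next. Olfr701 had 17.9 CPM in KO 2, above 14.3 in the next.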

How the results depend on the processing

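Of 27 called values of named members, 0 changed sign under an alternative, and of 57 that were not called 21 did. Of the called values, 16 kept their call in every alternative that tested them, and 11 lost it under 1 or more. Those of Olfr893, Olfr896-ps1, Olfr897-ps1, Olfr1372-ps1, Olfr309 and Olfr443-ps1 were among the 16 in both comparisons. Olfr893 and Olfr309 met the count rule through the mutants alone, and no KI library reached 10 counts for Olfr897-ps1. The kept calls of these genes are therefore a description.

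The numbers of members called moved as follows. Past 1 log2 unit, the higher members fell from 2 to 1 with at least 10 counts in every library (29 members tested), with only the 2 genotypes compared in the fit and with a member rule of 20 counts, in KO and in KI, and in KI also with close pairs summed without KI 4. By any amount, the higher members in KO fell from 7 to 1, 2 and 2 under the first 3 of these settings, and in KI from 5 to 1, 2 and 1. At an adjusted p under 0.05 the lower members in KO fell from 9 to 5 and the higher members in KI from 5 to 3. With close pairs summed and KI 4 left out, 3 WT, 5 KO and 3 KI samples remained. There the lower members fell from 9 to 5 in KO and from 8 to 4 in KI. The higher members in KI fell from 5 to 3. Over all genes, calls by any amount fell in that setting too. In KO they went from 3461 higher and 2836 lower (21058 tested) to 1905 and 1827 (23982 tested). In KI they went from 3397 and 3247 to 1275 and 1647. Olfr893 is not among the genes tested, or the members, under the first 3 settings, and with close pairs summed without KI 4 Olfr1372-ps1 no longer passed 1 log2 unit in KI (adjusted p = 0.381).

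Leaving out 1 library at a time gave 5 to 7 higher and 5 to 9 lower members in KO, and 3 to 8 higher and 7 to 11 lower in KI, with 2 higher and 1 lower past 1 log2 unit in KO and 2 to 3 higher and 1 lower in KI, and 0 between KI and KO. Without KI 4, 12 members were called in KI, 10 of them shared with the 13 before, with Olfr24 and Olfr128 gained. Of the called values, Olfr402 in KO kept its call in 8 of the 18 fits (log2 fold change 0.82 to 1.31), Olfr303 in KO in 10 (-0.81 to -0.49), Olfr316 in KO in 12 (-0.86 to -0.65) and Olfr750 in KO in 12 (1.06 to 1.44). Olfr701 in KO lost it without WT 3, WT 4, KO 4 or KO 5 (-0.55 to -0.38), Olfr750 in KI without WT 2, WT 5, WT 6 or KI 4 (0.88 to 1.48), Olfr25 in KI without WT 6, KI 1 or KI 4 (-1.21 to -0.76) and Olfr472 in KI without WT 2 or KI 4 (0.96 to 1.69). A rule of 20 counts left 45 members, and the rule without KI 4 left 70.

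With the replicate number as a block, 7 higher and 8 lower members were called in KO and 5 and 8 in KI. Same-numbered libraries correlated between -0.44 and 0.48 in their deviations, so the numbers were not taken as pairs. Calls on members at a few counts are limited by depth.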
